A study of Mus musculus with 6 samples.

Results

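Integrins and the proteins that hold them to the actin cytoskeleton were examined as a set of 36 genes in cultured lung microvascular endothelial cells (LMVEC) of Ptprz1+/+ and Ptprz1-/- mice. The set was listed by gene symbol and not filtered by expression, with earlier results of these data known. It held 20 integrin subunits (12 alpha and 8 beta) and 16 adaptors and kinases. All 36 symbols were found among the 21999 genes counted, and 34 passed the filter on low counts that left 13609 genes for testing. Itgb6 and Ilk did not pass it.

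RNA came from untreated cells of the SV129/B6 strain, in 3 independent isolations per genotype. One isolation combined lung tissue from 2 to 5 mice aged 3 to 8 weeks. Cells were grown to confluence and then separated with magnetic beads that bind CD31, the endothelial surface protein encoded by Pecam1. The comparison asks whether adhesion genes differ when PTPRZ1, a transmembrane tyrosine phosphatase that has the integrin αvβ3 among its signalling partners, has been deleted in the whole animal.

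An integrin is a pair of one alpha and one beta subunit that spans the cell membrane and binds the extracellular matrix outside the cell. Inside, talins and kindlins bind the tail of the beta subunit and switch the integrin on, and vinculin, zyxin, tensins and the complex of ILK, PINCH and parvin connect it to actin. Focal adhesion kinase and Src then signal through paxillin, p130Cas and Crk. In endothelial cells the αv integrins and α5β1 are known for their part in the growth of new vessels, while laminin-binding and collagen-binding integrins hold the cells to the basement membrane.

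Reads of the deleted gene itself overlapped between genotypes. Ptprz1 (chromosome 6 of GRCm38 from 22875502 to 23052916) was counted 197, 1837 and 508 times in Ptprz1+/+ replicates 1, 2 and 3 and 1138, 1320 and 895 times in the libraries labelled Ptprz1-/- replicates 1, 2 and 3. Reads were counted over the whole gene, and the deleted part is not given in the sources used here, so the count does not check the deletion. The genotypes are therefore those of the labels throughout. CD31 selection was not matched by endothelial transcripts in most libraries. Pecam1 was at 1.36 to 4.40 CPM (counts scaled to a common library size) in replicates 1 and 2 of both genotypes and at 91.0 and 32.4 CPM in replicate 3 of Ptprz1+/+ and of Ptprz1-/-. Cdh5, the endothelial cadherin, followed the same order, at 3.60 to 14.3 CPM against 199 and 61.3 CPM. Col1a1, a fibroblast collagen chain, was at 2494 to 5992 CPM in all 6 libraries. Depth was 14496881 to 17709663 counts per library, of which the 36 genes held 0.466 to 0.668%. In such bulk samples fewer cells of a type and less RNA per cell cannot be told apart.

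Promoter sequence (RefSeq, build GRCm38.p6, 250 bases before to 50 bases after the gene start) was matched for 27 of the 36 genes. The table used held no entry for Itga6, Itga7, Itgb2, Itgb3, Itgb4, Ptk2, Pxn, Tln2 and Parva. The gene start is that of RefSeq and could differ from the counted gene. The windows of Itga9 (chr9:118711442-118711741) and Src (chr2:157424043-157424342) lay inside the counted genes, which begin at 118606690 and 157418444. That of Itgb8 (chr12:119238227-119238526) also lay inside its gene, which on the minus strand begins at 119238802. The 4 windows shown are those of Itgav and Itgb5, the αv subunit and the most abundant of its partners apart from Itgb1, and those of Vcl and Fermt2, which alone among the 27 held a CArG box, the motif bound by serum response factor. They lie at chr2:83724147-83724446 (plus strand), chr16:33829415-33829714 (plus strand), chr14:20929148-20929447 (plus strand) and chr14:45530016-45530315 (minus strand). Capitals mark GC boxes (GGGCGG on either strand, the motif bound by Sp1) and, in Vcl and Fermt2, the CArG box.
Itgav: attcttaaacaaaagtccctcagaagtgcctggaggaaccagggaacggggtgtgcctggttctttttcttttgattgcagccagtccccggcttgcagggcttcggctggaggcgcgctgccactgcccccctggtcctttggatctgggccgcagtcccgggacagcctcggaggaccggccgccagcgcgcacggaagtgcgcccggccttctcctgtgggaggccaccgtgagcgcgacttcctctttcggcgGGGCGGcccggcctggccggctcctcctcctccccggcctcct
Itgb5: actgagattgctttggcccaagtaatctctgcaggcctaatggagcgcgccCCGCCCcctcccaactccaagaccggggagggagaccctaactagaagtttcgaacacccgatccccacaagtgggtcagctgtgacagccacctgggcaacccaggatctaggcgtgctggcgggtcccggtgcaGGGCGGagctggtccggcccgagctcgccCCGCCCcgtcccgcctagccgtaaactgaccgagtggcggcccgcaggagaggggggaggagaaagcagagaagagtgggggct
Vcl: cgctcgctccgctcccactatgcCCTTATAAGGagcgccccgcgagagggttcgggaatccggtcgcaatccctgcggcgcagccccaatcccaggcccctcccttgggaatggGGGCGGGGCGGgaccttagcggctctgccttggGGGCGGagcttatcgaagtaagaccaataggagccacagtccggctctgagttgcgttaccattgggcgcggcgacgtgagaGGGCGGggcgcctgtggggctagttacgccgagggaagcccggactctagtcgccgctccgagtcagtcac
Fermt2: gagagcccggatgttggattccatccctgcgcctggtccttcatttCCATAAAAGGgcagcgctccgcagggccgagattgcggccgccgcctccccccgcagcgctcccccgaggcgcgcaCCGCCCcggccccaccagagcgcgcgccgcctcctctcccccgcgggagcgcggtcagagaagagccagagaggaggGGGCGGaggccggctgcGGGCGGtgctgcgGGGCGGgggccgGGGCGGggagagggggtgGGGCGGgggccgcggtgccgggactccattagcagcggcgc

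A GC box was found in 16 of the 27 promoters of the set (59.3%) against 35.9% of 27025 promoters of the same length. The 27025 were all genes of the promoter reference, with no limit to genes expressed or tested here. The comparison therefore does not separate adhesion genes from expressed genes in general. No promoter of the set held TATAAA on either strand, against 14.2% of all, and the median number of CpG dinucleotides was 20 against 7. CArG boxes stood in 2 of 27 (7.41%) against 1.59% of all. These are matches of letters and not sites shown to be bound. The pair with a CArG box differed in how steady they were: Vcl spanned 4.38-fold between its lowest and highest library and Fermt2 1.31-fold.

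Levels of different genes are compared in FPKM, counts scaled to both gene length and library size. Among the alpha subunits Itga5 (α5, the fibronectin receptor subunit that pairs with β1) stood at 51.5 ± 14.9 FPKM (SD, n = 6, both genotypes) and Itgav (αv) at 38.3 ± 1.96. Their ranges overlapped, at 36.1 to 70.4 and 35.4 to 40.2 FPKM. Itga3 (12.6 ± 13.03), Itga7 (9.32 ± 7.89) and Itga6 (8.11 ± 2.74), which encode laminin-binding subunits, came next and overlapped each other. The 3 beta subunits of highest mean formed separate tiers, though the lowest of them, Itgb3, overlapped Itgb2 (1.59 to 5.87 FPKM). Itgb1, the common partner of most alpha subunits, was at 400 ± 81.8 FPKM (range 249 to 485), Itgb5 at 97.0 ± 19.6 (62.2 to 115) and Itgb3 at 5.19 ± 4.91 (1.99 to 14.9), with no overlap between the 3. Of the adaptors and kinases, 13 of 16 had a mean above 10 FPKM, led by Zyx (149 ± 47.0), Tln1 (87.2 ± 8.92), Vcl (54.1 ± 24.6) and Parva (53.1 ± 6.43). Of the integrin subunits 5 of 20 did. The 7 genes with a mean under 1 FPKM were Itga4, Itga10, Itgb4, Itgb6, Itgb7, Ilk and Fermt3.

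**Figure D1:**
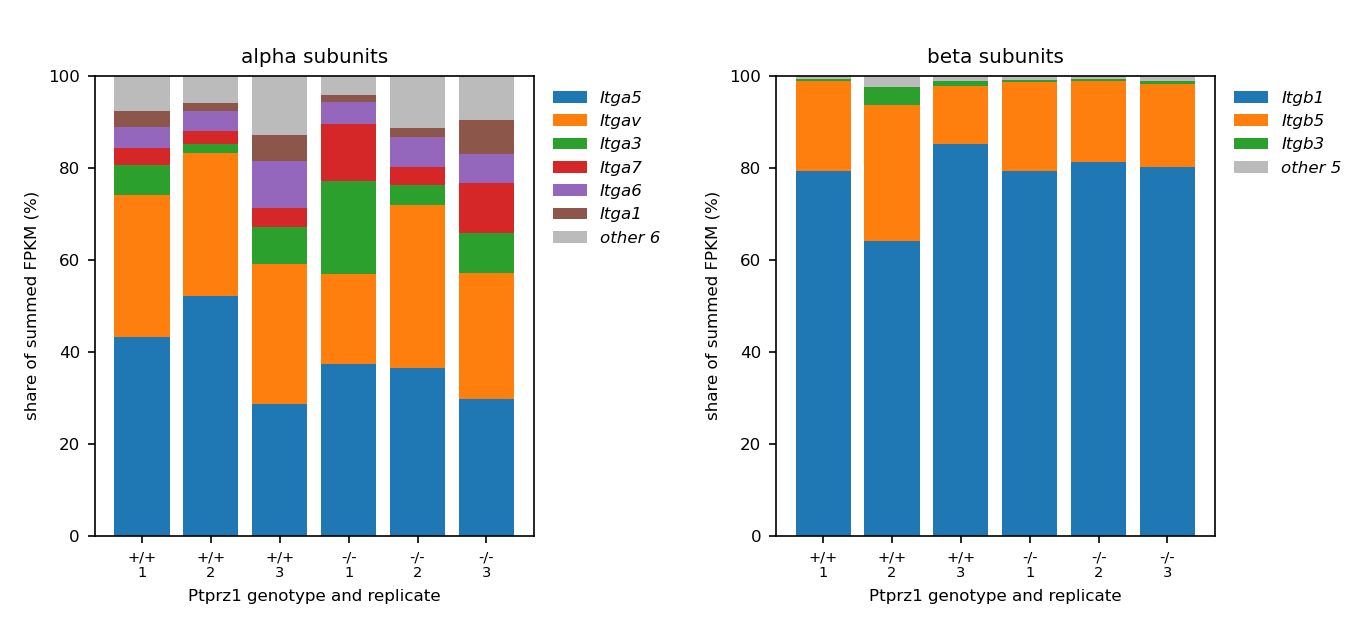
Share of the summed FPKM of the 12 alpha subunits (left) and of the 8 beta subunits (right) held by each subunit, one stacked bar per library, in percent. Itgb1 and Itgb5 fill most of every beta bar, and the Itgb3 band is widest in Ptprz1+/+ replicate 2 (3.83%), while Itga3 is widest in Ptprz1-/- replicate 1 (20.3%).

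As shares, Itga5 made up 28.6 to 52.2% of the alpha FPKM and Itgav 19.4 to 35.5%. Itgb1 made up 64.0 to 85.1% of the beta FPKM, Itgb5 12.6 to 29.6% and Itgb3 0.385 to 3.83%. Both αv partners were present in every library, and Itgb5 exceeded Itgb3 in FPKM by 7.72-fold in Ptprz1+/+ replicate 2 and by 11.1-fold to 50.5-fold in the other 5 libraries. The bars for Itgb3 show the library in which this ratio was lowest.

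Neither subunit of αvβ3 passed the test, and the 2 behaved differently from library to library. Itgav (ENSMUSG00000027087, chromosome 2, 83724397 to 83806916) measured 289, 271 and 280 CPM in replicates 1, 2 and 3 of Ptprz1+/+, and 249.9, 299 and 239 CPM in replicates 1, 2 and 3 labelled Ptprz1-/-. The genotypes overlapped and all 6 values lay within 1.25-fold of each other. The log2 fold change (Ptprz1-/- minus Ptprz1+/+) was -0.09 with a standard error of 0.14. Itgb3 (ENSMUSG00000020689, chromosome 11, 104608000 to 104670476) measured 15.3, 83.8 and 33.6 CPM in the Ptprz1+/+ replicates, against 11.2, 17.5 and 17.5 CPM in those labelled Ptprz1-/-. Replicates 2 and 3 of Ptprz1+/+ were above all others, and replicate 1 lay among the libraries labelled Ptprz1-/-. Means were 44.3 ± 35.5 and 15.4 ± 3.66 CPM (SD, n = 3 each). The log2 fold change was -1.52 (standard error 0.60; edgeR's quasi-likelihood test, unadjusted p = 0.041, adjusted p = 1.00). DESeq2 gave an adjusted p of 0.843, and by exact two-sided permutation p was 0.30, where 3 libraries against 3 cannot go below 0.10. The value rested largely on Ptprz1+/+ replicate 2: without that library the log2 fold change was -0.67 with a standard error of 0.39.

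**Figure D2:**
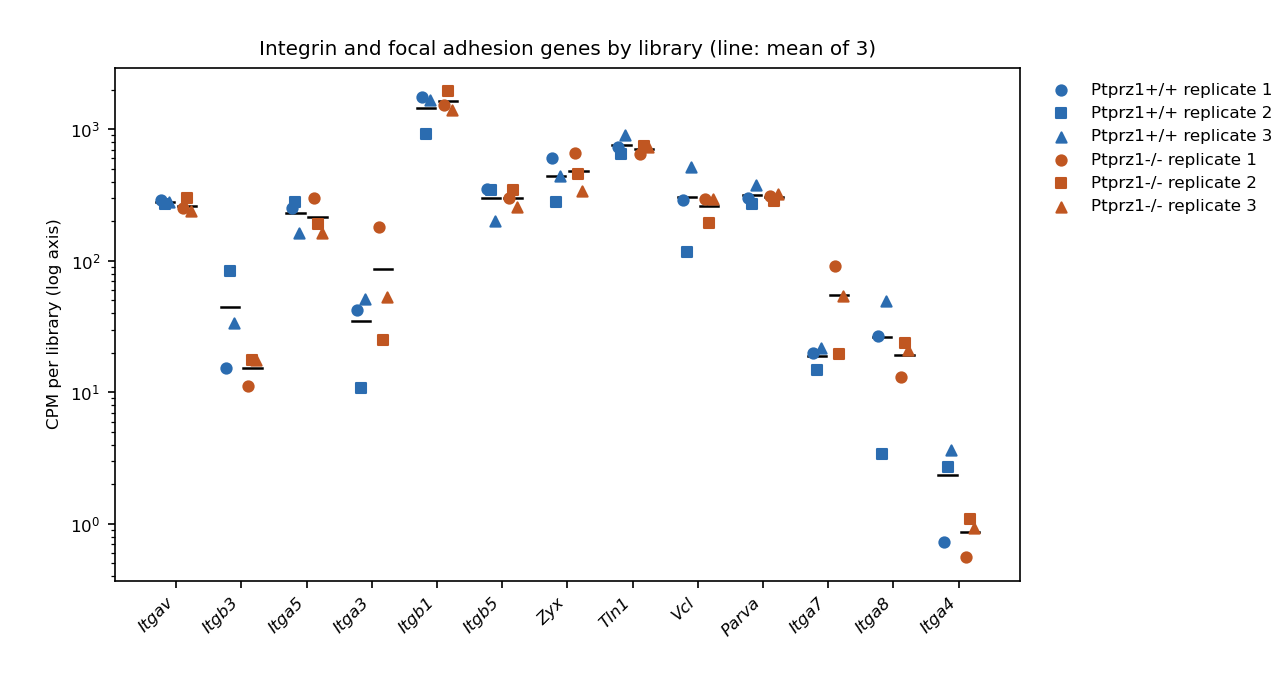
CPM in each library, on a log axis, of the 13 genes given library by library. Blue marks Ptprz1+/+ and orange Ptprz1-/-, the symbol gives the replicate and the line the mean of 3. The Itgav points lie within 1.25-fold of each other, the Itgb3 points span 7.51-fold, and in none of the 13 are the genotypes separated.

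Spp1 and Ptprz1 had their highest value in the same library as Itgb3, Ptprz1+/+ replicate 2. Of all genes tested, 26.9% were highest in that library. Spp1, which encodes osteopontin, a secreted ligand of αvβ3, was at 1113, 6650 and 384 CPM in the Ptprz1+/+ replicates and at 401, 547 and 376 CPM in those labelled Ptprz1-/-. It was named after its values were seen. Its log2 fold change was -2.62 with a standard error of 1.00 (edgeR, unadjusted p = 0.037, adjusted p = 1.00). Ptprz1 itself, at 11.9, 101 and 32.1 CPM against 70.6, 90.6 and 59.1 CPM, was also highest in Ptprz1+/+ replicate 2, but unlike Itgb3 and Spp1 it was high in all 3 libraries labelled Ptprz1-/-. Platelets carry αIIbβ3, and the 4 platelet markers listed summed to 3.63 to 6.31 CPM, mostly Gp1bb (2.25 to 6.25 CPM), with the lowest sum in Ptprz1+/+ replicate 2. Pf4 was highest in that library, at 1.37 CPM against 0 to 0.379 CPM in the others. Itga2b, the αIIb subunit, was at 2.95 to 5.88 CPM. Leukocyte markers had their highest sums in the same 2 libraries as Itgb3, Ptprz1+/+ replicates 2 and 3 (54.5 and 75.7 CPM). Most of these sums was Lyz2 (17.4 and 40.1 CPM) and Cd14 (19.2 and 20.1 CPM). Singly, Lyz2, Cd68, Csf1r, Laptm5 and Tyrobp had their 2 highest values in these libraries, and Cd14, Ptprc, Coro1a, Fcer1g and Cd52 did not. The part of platelets and leukocytes in the Itgb3 values was not tested.

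The other αv partners and RGD-binding subunits that were tested did not pass either, and Itgb6 was not tested. Itgb5, the β5 chain of the vitronectin receptor αvβ5, was at 351, 346 and 199 CPM in the Ptprz1+/+ replicates and at 301, 346 and 257 CPM in those labelled Ptprz1-/-. Replicate 3 was the lowest of each genotype, and the log2 fold change was 0.02 ± 0.26 (standard error). Itgb8, the chain of αvβ8, which activates latent TGF-β, ranged from 4.90 to 18.1 CPM. Itgb6, the epithelial partner of αv, was counted 3, 0 and 0 times in Ptprz1+/+ and 0, 1 and 1 times in the libraries labelled Ptprz1-/-. A count of 0 allows up to 3 counts, or 0.165 to 0.189 CPM in the 3 libraries concerned. The epithelial markers summed to 2.38 to 11.9 CPM over 6 genes.

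Itga5 was at 252, 282 and 164 CPM in Ptprz1+/+ and at 298, 191 and 162 CPM in the libraries labelled Ptprz1-/-. The genotypes covered nearly the same range, with a log2 fold change of -0.10 ± 0.30. Itga8, which encodes α8, a receptor for nephronectin in mesenchymal and smooth muscle cells, was at 26.8, 3.41 and 49.3 CPM in Ptprz1+/+ and at 12.96, 23.8 and 21.1 CPM in those labelled Ptprz1-/-. The Ptprz1+/+ libraries held both its lowest and its highest value, 14.5-fold apart, and its log2 fold change was -0.46 ± 0.81.

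Itgb1 was the most abundant integrin transcript of the set and varied by 2.12-fold. It was at 1755, 923 and 1654 CPM in the Ptprz1+/+ replicates and at 1516, 1958 and 1406 CPM in those labelled Ptprz1-/-. Ptprz1+/+ replicate 2 lay below all libraries labelled Ptprz1-/- and the other two Ptprz1+/+ libraries within their range, and the log2 fold change was 0.17 ± 0.31.

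Of the 4 collagen-binding alpha subunits, Itga1 and Itga2 varied in opposite ways between libraries. Itga1, the α1 chain of microvascular and mesenchymal cells, was at 27.7, 11.7 and 42.7 CPM in Ptprz1+/+ and at 18.2, 14.4 and 54.4 CPM in the libraries labelled Ptprz1-/-. Itga2 was at 9.42, 14.2 and 5.87 CPM and at 11.8, 21.1 and 4.56 CPM. Replicate 3 of each genotype thus had the highest Itga1 and the lowest Itga2, and the FPKM ratio of the 2 genes was 5.13 and 8.41 there against 0.480 to 2.07 in the other 4 libraries. These libraries were chosen for mention after their values were seen. They were also the libraries with the most endothelial transcript: the 12 endothelial markers, none of them at 0 throughout, summed to 598 and 199 CPM there against 24.2 to 40.6 CPM in the others. Fibroblast markers also had their highest sums there, at 26698 and 28183 CPM against 12044 to 18969 CPM, though singly only 4 of 10 were higher in both than in the other 4 libraries. The part of either cell type in the ratio was not tested. Itga9, the α9 chain that binds tenascin-C and guides lymphatic valve growth, showed the same split, at 36.2 and 37.5 CPM in the replicates 3 against 6.82 to 17.98 CPM elsewhere. Of the lymphatic markers, 4 of the 5 listed were in the table. Of these only Lyve1 split in the same way, at 38.8 and 7.20 CPM in the replicates 3 against 0.715 to 1.69 CPM elsewhere. Prox1 was highest in Ptprz1+/+ replicate 3 (4.54 CPM). In Ptprz1-/- replicate 3 it was at 0.859 CPM, below Ptprz1+/+ replicate 2 (1.65 CPM) and Ptprz1-/- replicate 1 (1.05 CPM). Flt4 was also highest in Ptprz1+/+ replicate 3 (64.4 CPM). Its value in Ptprz1-/- replicate 3 (44.1 CPM) lay below Ptprz1-/- replicates 1 and 2 (61.3 and 57.4 CPM). Pdpn made up most of the sum of the lymphatic markers (232 to 342 CPM) and did not split. The part of lymphatic cells in Itga9 was not tested. Itga10 (0.934 to 1.89 CPM) and Itga11 (2.31 to 13.04 CPM) were low.

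The laminin-binding subunits Itga3 and Itga7 were highest in 1 library labelled Ptprz1-/-. Itga7 (ENSMUSG00000025348, chromosome 10, 128933813 to 128958277), known as the laminin receptor chain of muscle, measured 19.8, 14.8 and 21.6 CPM in Ptprz1+/+ and at 90.8, 19.4 and 54.2 CPM in the libraries labelled Ptprz1-/-. Replicates 1 and 3 labelled Ptprz1-/- were above all Ptprz1+/+ libraries, and replicate 2 lay among them. Means were 18.7 ± 3.48 and 54.8 ± 35.7 CPM. The log2 fold change was 1.55 with a standard error of 0.52 (edgeR's quasi-likelihood test, unadjusted p = 0.023, adjusted p = 1.00). By DESeq2 the adjusted p was 0.505, the lowest of the set, and the exact permutation p was 0.30. Without Ptprz1-/- replicate 1 the log2 fold change was 0.98 with a standard error of 0.45.

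Itga3 (ENSMUSG00000001507, chromosome 11, 95044474 to 95076801), the α3 chain of epithelial adhesion, was at 42.3, 10.7 and 51.5 CPM in Ptprz1+/+ and at 180, 25.0 and 52.8 CPM in the libraries labelled Ptprz1-/-. It had the widest spread among members with a mean of at least 1 CPM, 16.8-fold. Its log2 fold change was 1.30 ± 0.84, and 0.16 ± 0.69 without Ptprz1-/- replicate 1. The 4 mesothelial markers (Msln, Upk3b, Wt1 and Lrrn4) summed to 1079 CPM in that library, against 50.8 to 153 CPM in Ptprz1+/+ and 84.0 and 236 CPM in replicates 2 and 3 labelled Ptprz1-/-. All 4 were highest there. Ptprz1+/+ replicate 2, where Itga3 and Itga7 were lowest, also had the lowest mesothelial sum, and 3 of the 4 markers, not Wt1 (32.7 CPM), were lowest there. Smooth muscle and pericyte markers had their lowest sum (866 CPM) and highest sum (4611 CPM) in these same 2 libraries. Their sum was nearly as high in Ptprz1+/+ replicate 1 (4435 CPM), where Itga3 and Itga7 were at 42.3 and 19.8 CPM. Of the 9 markers, 3 were highest in Ptprz1-/- replicate 1 and 3 lowest in Ptprz1+/+ replicate 2. Des, the muscle intermediate filament, was at 411 CPM in Ptprz1-/- replicate 1 against 6.88 to 66.5 CPM elsewhere. Acta2 and Myh11 were highest in Ptprz1+/+ replicate 1 (2157 and 48.9 CPM). The part of mesothelial and muscle cells in the Itga3 and Itga7 values was not tested. Itga6, the third laminin-binding chain, was at 23.2 to 58.3 CPM with its highest value in Ptprz1+/+ replicate 3, and Itgb4, the hemidesmosome chain that pairs with α6, at 2.47 to 5.95 CPM.

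**Figure D3:**
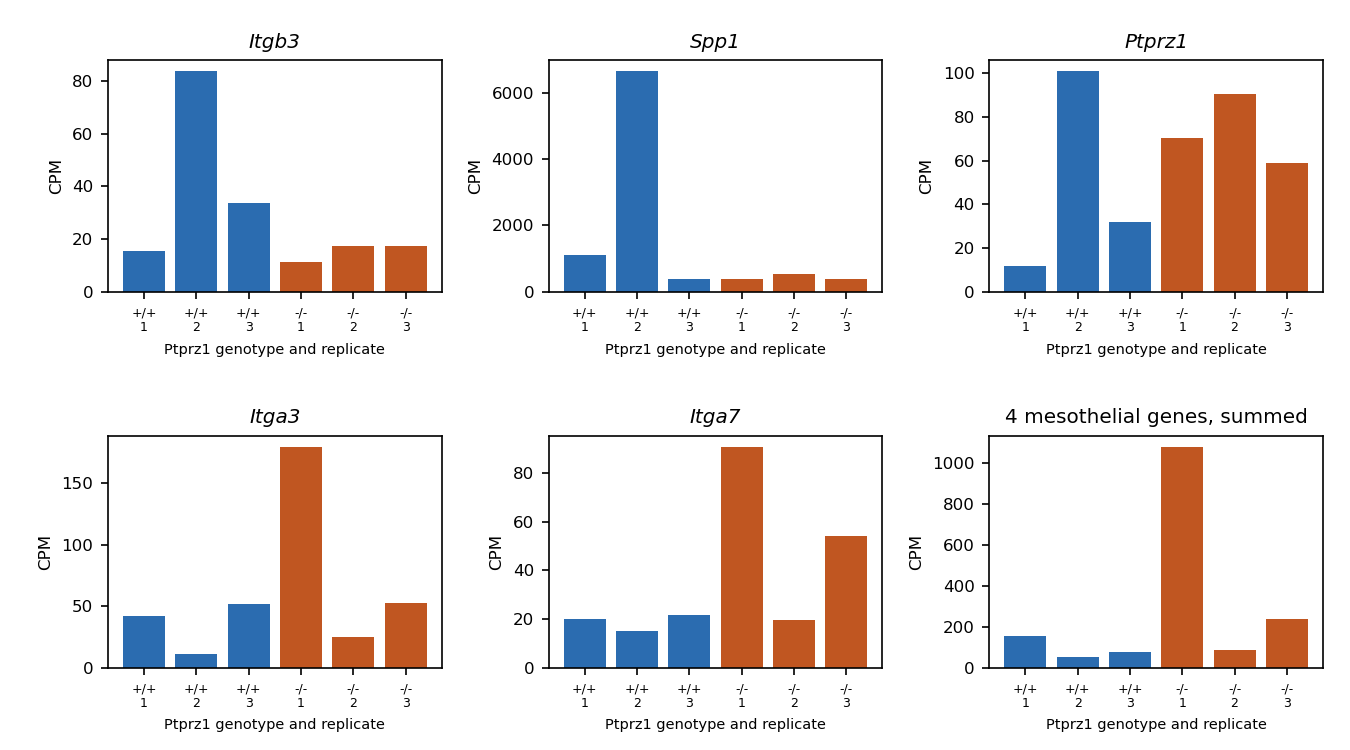
CPM per library of Itgb3, Spp1 and Ptprz1 (upper row) and of Itga3, Itga7 and the sum of 4 mesothelial markers (lower row), with Ptprz1+/+ in blue and Ptprz1-/- in orange. Ptprz1+/+ replicate 2 has the highest bar in each upper plot, and Ptprz1-/- replicate 1 in each lower plot. Of all genes tested, 26.9% were highest in Ptprz1+/+ replicate 2 and 17.6% in Ptprz1-/- replicate 1.

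Integrin chains of leukocytes were low. Itga4, the α4 chain that binds VCAM-1 and fibronectin, was at 0.725, 2.69 and 3.66 CPM in Ptprz1+/+ and at 0.558, 1.10 and 0.925 CPM in the libraries labelled Ptprz1-/-. Replicates 2 and 3 of Ptprz1+/+ were above the others, and the log2 fold change was -1.45 ± 0.63 (edgeR, unadjusted p = 0.059, adjusted p = 1.00). Itgb2, the β2 chain of leukocytes, reached 16.99 CPM in Ptprz1+/+ replicate 2 and was at 5.01 to 8.83 CPM elsewhere. Itgb7 was at 0.505 to 3.08 CPM and Fermt3, the kindlin of blood cells, at 0.362 to 1.89 CPM. The 10 leukocyte markers summed to 27.1 to 75.7 CPM in Ptprz1+/+, where replicates 2 and 3 had the 2 highest sums of all libraries (54.5 and 75.7 CPM), and to 26.6 to 38.8 CPM in those labelled Ptprz1-/-. No marker was at 0 in all libraries. Most of their sum was Lyz2 (6.25 to 40.1 CPM) and Cd14 (10.8 to 21.5 CPM). The pan-leukocyte Ptprc was at 0.0686 to 0.558 CPM, highest in Ptprz1-/- replicate 1. The part of leukocytes in the values of these genes was not tested.

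The adaptors and kinases were steadier than the integrin subunits. Among the talins, Tln1 was at 738, 645 and 896 CPM in Ptprz1+/+ and at 653, 743 and 727 CPM in the libraries labelled Ptprz1-/-. The range of the second group lay inside that of the first, and the log2 fold change was -0.10 ± 0.19. Tln2, the talin of muscle and brain, was at 24.7 to 60.0 CPM, and Tln1 exceeded it by 17.8-fold to 37.7-fold in FPKM. Fermt2, the kindlin of adherent cells, was at 118 to 155 CPM and exceeded Fermt3 by 49.1-fold to 311-fold in FPKM.

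Among the actin linkers, Vcl (vinculin) was at 292, 117 and 512 CPM in Ptprz1+/+ and at 295, 193 and 296 CPM in the libraries labelled Ptprz1-/-. Its log2 fold change was -0.23 ± 0.51, with the Ptprz1+/+ libraries holding both extremes. Zyx, which gathers at adhesions under tension, was at 599, 280 and 441 CPM in Ptprz1+/+ and at 656, 460 and 340.04 CPM in those labelled Ptprz1-/-, with a log2 fold change of 0.14 ± 0.35. Tns1 (tensin 1) was at 156 to 562 CPM (log2 fold change 0.68 ± 0.38) and Tns3 at 174 to 347 CPM (0.25 ± 0.27).

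In the ILK complex, Parva (α-parvin) was at 300.5, 269 and 379 CPM in Ptprz1+/+ and at 312, 287 and 324 CPM in the libraries labelled Ptprz1-/-. Its log2 fold change was -0.04 ± 0.17, and the second group again lay inside the range of the first. Lims1 (PINCH-1) was at 125 to 212 CPM. Ilk, the kinase-like core of the complex, was counted only 15, 0 and 11 times in Ptprz1+/+ and 9, 8 and 9 times in those labelled Ptprz1-/-. In the GENCODE M21 annotation of GRCm38, 89.7% of its exon bases lie within exons of genes on the opposite strand, mostly Taf10 (76.7%), which was counted 793 to 1279 times. At least 80% of exon bases lay in an opposite-strand gene in 30 protein-coding genes, Ilk among them. Of these, 22 (73.3%) had a mean count under 20, against 30.3% of 12444 genes with under 1%. The 30 included Gm and Rik gene models with low counts, and also Ubxn6 and Gnpnat1 with mean counts of 1252 and 582. The cause of the low counts in this class was not tested. Use of strand in counting is not given in the sources used here, so reads of Ilk and Taf10 may not have been told apart, and the count of Ilk is uncertain. Vcl shared 25.5% of its exon bases with Ap3m1 on the opposite strand and Itga10 33.5% with Gm42957 on its own strand. No other member shared more than 20% with another gene.

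Signalling members varied little between libraries. Ptk2 (focal adhesion kinase) was at 55.7 to 86.0 CPM, Src at 83.0 to 99.2, Pxn (paxillin) at 97.4 to 141, Bcar1 (p130Cas) at 85.2 to 115 and Crk at 165 to 226 CPM. Their log2 fold changes ran from -0.14 ± 0.14 for Bcar1 to 0.18 ± 0.16 for Pxn.

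**Figure D4:**
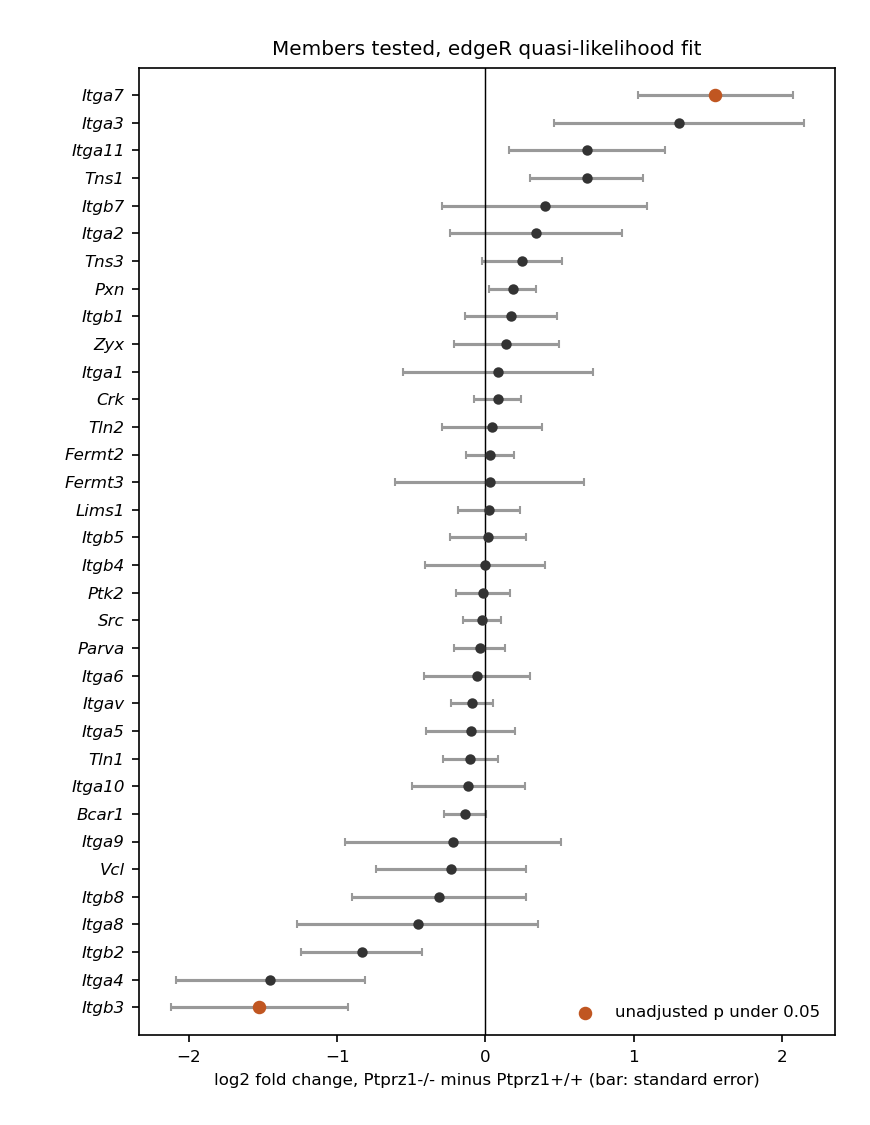
Log2 fold change, Ptprz1-/- minus Ptprz1+/+, of the 34 genes tested, with bars of 1 standard error from edgeR's quasi-likelihood fit. Itga7 (1.55) and Itgb3 (-1.52), in orange, stand at the ends of the list, and 23 of 34 points lie between -0.3 and 0.3.

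Across the set, no member differed between genotypes at an adjusted p under 0.05. By edgeR's quasi-likelihood test 0 of 34 members passed, as did 0% of the 13609 genes tested, and DESeq2 and edgeR's likelihood ratio test also called 0 members. At an unadjusted p under 0.05 there were 2 members, Itga7 (higher) and Itgb3 (lower), beside 2.69% of all genes. DESeq2 had 3 members, beside 3.63% of all genes. In 0 of 34 members were the 3 libraries of one label all above or all below the 3 of the other, beside 7.28% of all genes tested. The median log2 fold change of the members was 0.01, with 17 positive and 17 negative, and that of all genes was -0.0047. An absolute log2 fold change under 0.3 was found in 23 of 34 members (67.6%) and in 71.0% of all genes; 14 of 15 adaptors and kinases were under it, and 9 of 19 integrin subunits.

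The spread between libraries was wide among the integrin subunits. The ratio of the highest to the lowest library had a median of 4.64 over 19 integrin subunits and 1.54 over 15 adaptors and kinases, beside 1.72 over all genes tested. For genes with a mean of at least 10 CPM, where counting error is small, the ratio was under 2 in 3 of 13 integrin subunits and 10 of 14 adaptors, beside 75.5% of all such genes. The ratio was over 5 in 9 members: Itga3, Itga4, Itga7, Itga8, Itga9, Itga11, Itgb3, Itgb7 and Fermt3.

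The lowest and highest values of the members were counted by library. Ptprz1+/+ replicate 2 was the lowest library for 18 of 34 members (52.9%), beside 26.5% of all genes. These were 10 adaptors and kinases, Itgb1 and 7 alpha subunits that pair with it. The same library had the lowest sum of smooth muscle and pericyte markers, at 866 CPM against 1588 to 4611 CPM in the others. This rested on Acta2, Tagln and Pdgfrb, as the other 6 of the 9 markers were lowest in other libraries, and their part in these values was not tested. Ptprz1+/+ replicate 3 was the highest for 11 members (32.4%, beside 12.98% of all genes) and Ptprz1-/- replicate 1 for 9 (26.5%, beside 17.6%).

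**Figure D5:**
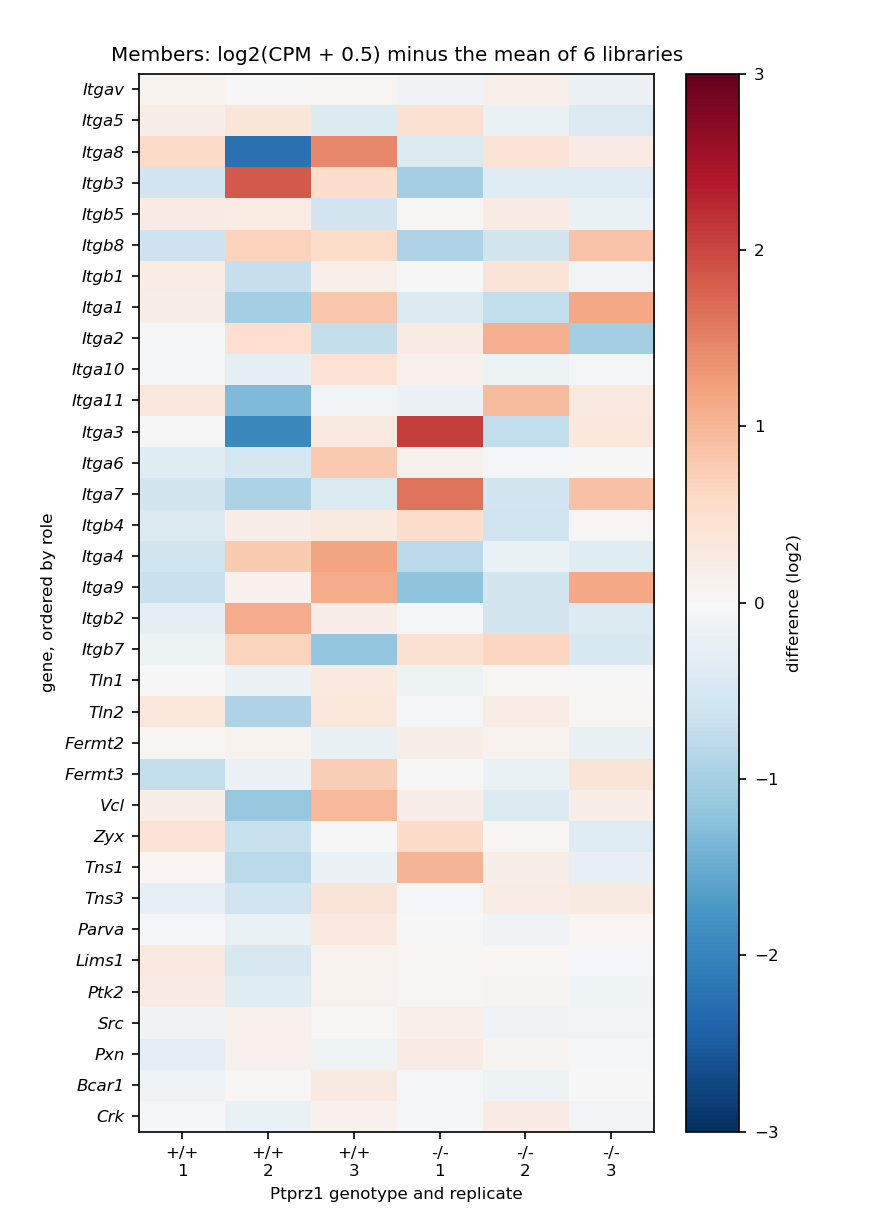
Difference of log2(CPM + 0.5) from the mean of the 6 libraries for the 34 members tested, one row per gene ordered by role and one column per library, red above and blue below the mean. Ptprz1+/+ replicate 2 is the lowest column for 18 rows, and the adaptors in the lower rows are mostly paler than the integrin subunits above them.

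The rest of the adhesion pathway was read from lists of other integrin subunits, other adaptors and kinases, and integrin ligands. The table held 6 further integrin subunits, of which 2 were tested, 39 adaptors and kinases, of which 37, and 28 ligands, of which 27, and edgeR's quasi-likelihood test and DESeq2 each called 0 at an adjusted p under 0.05. At an unadjusted p under 0.05, 0 of the 2 subunits, 1 of the 37 adaptors (lower) and 3 of the 27 ligands (1 higher, 2 lower) passed, beside 2.69% of all genes. The genotypes did not overlap in 7 of the 37 adaptors (18.9%, 6 lower and 1 higher) and in 4 of the 27 ligands (14.8%, 1 lower and 3 higher), beside 7.28% of all genes.

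The 3 genes with the smallest p were Postn, Tgfb1i1 and Icam1, and in each the genotypes did not overlap. Postn (periostin, a ligand of αv integrins, also listed among the fibroblast markers) was at 20.2, 28.7 and 41.0 CPM in Ptprz1+/+ and at 13.7, 14.3 and 18.6 CPM in the libraries labelled Ptprz1-/- (log2 fold change -0.95 ± 0.28). Tgfb1i1, which encodes Hic-5, a paxillin relative, was at 141, 109 and 123 CPM and at 94.1, 86.6 and 95.05 CPM (-0.44 ± 0.13). Icam1, the adhesion molecule that leukocyte β2 integrins bind, was at 44.5, 16.2 and 57.9 CPM and at 103, 103 and 83.8 CPM (1.29 ± 0.43). Unadjusted p-values of edgeR's quasi-likelihood test were 0.014, 0.016 and 0.023, and each adjusted p was 1.00. For each of the 3 the exact two-sided permutation p was 0.10, the smallest it can give. Fibroblast markers, which include Postn, summed to 18928 to 26698 CPM in Ptprz1+/+ and to 12044 to 28183 CPM in those labelled Ptprz1-/-, so their groups overlapped. Their sum was mostly collagen chains. Singly, all 10 had a negative log2 fold change, from -0.11 for Col1a2 to -0.96 for Dpt, beside 50.9% of all genes. Postn was the 1 fibroblast marker at an unadjusted p under 0.05 by edgeR's quasi-likelihood test. All 12 endothelial markers had a negative log2 fold change as well. The part of fibroblasts in the Postn value was not tested. Fn1, the fibronectin ligand of α5β1, was at 7067 to 10203 CPM, with a log2 fold change of 0.01 ± 0.33.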

How the data were processed

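The 36 genes, the lists of other pathway genes and the marker lists were chosen with earlier results of these data known. The authors deposited read counts per gene and library, not normalized, and FPKM values, which were recomputed from the same counts and gene lengths. Their own fold changes, p-values and mean columns were not used. The submitters' notes name STAR, TopHat, HTSeq, DESeq2 and edgeR, with no role or version, and the builds GRCm38 and mm10. Strand use is not given in the sources used here.

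Counts of all 21999 genes were filtered (filterByExpr, 13609 kept), scaled by TMM and fitted in edgeR 4.0.16 (R 4.3.3) (glmQLFit, glmQLFTest, a single genotype term). P-values were adjusted by Benjamini-Hochberg across the 13609 genes, and 0.05 was the threshold. The standard error was taken as the size of the log2 fold change over the root of its F statistic. CPM uses the TMM-scaled library size. Values of 1 gene were also given an exact two-sided permutation test. The functions were tested on simulated counts. The pass condition used a dispersion set below that of these data, so it does not show recovery at their spread. P-values measure the spread between isolations. Exon overlaps used GENCODE M21, and minimap2 2.31 found no transcript of another gene matching a member over at least 500 bases at 95% identity.

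Values per library are given for Itgav, Itgb3, the 3 alpha and 3 beta subunits and 4 adaptors of highest mean FPKM, members at an unadjusted p under 0.05 and the 4 of widest spread with a mean of at least 1 CPM. Also named are the 3 pathway genes of smallest p. Itga1, Itga2, Itga9, Spp1 and Fn1 were given in detail after their values were seen. Alternatives were DESeq2 1.42.0, edgeR's likelihood ratio test, upper-quartile scaling, no filter, at least 10 counts in every library, a threshold of 0.1, the replicate number as a block, and each library left out. A fit of replicates 1 and 2 alone was added after seeing the data.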

Additional observations from a re-analysis of the deposited data

How the results depend on the processing

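Under every alternative run, 0 members and 0 of the other pathway genes passed the adjusted threshold, and all genes past it numbered 0 except 30 by DESeq2 and 17 by edgeR's likelihood ratio test. Leaving out 1 library gave 0 members past it each time, and 0 to 4 members with unadjusted p below 0.05 by edgeR's quasi-likelihood test. The number was 0 without Ptprz1-/- replicate 1 (beside 2.23% of all genes) and 1 without Ptprz1+/+ replicate 2 (Itga8, beside 2.51%). It was 1 without Ptprz1-/- replicate 2 or 3 (Itga7 each time, beside 2.34% and 2.86%). Without Ptprz1+/+ replicate 1 it was 3 (Itgb2, Itgb3 and Itga4, beside 4.84%). Without Ptprz1+/+ replicate 3 it was 4 (Tns3, Itgb3, Itga7 and Itga6, beside 3.53%). With replicates 1 and 2 alone, an alternative chosen after seeing the data, 0 members were at an unadjusted p under 0.05 (1.88% of all genes), and the genotypes did not overlap in 3 of 34 members (8.82%, beside 26.6% of all genes). Log2 fold changes under leave-one-out ran from -0.39 to 0.074 for Itga5, -0.069 to 0.34 for Itgb1, -0.21 to 0.15 for Itgb5, -0.14 to 0.43 for Zyx, -0.21 to 0.035 for Tln1, -0.63 to 0.35 for Vcl, -0.15 to 0.11 for Parva and -0.99 to 0.36 for Itga8, so each of these 8 crossed 0. With replicates 1 and 2 alone, Itgb5 (-0.11), Tln1 (0.014), Vcl (0.25), Parva (0.071) and Itga8 (0.29) also turned. Itgav (-0.20 to -0.03), Itgb3 (-1.93 to -0.67), Itga3 (0.16 to 1.74), Itga7 (0.98 to 1.95) and Itga4 (-1.87 to -0.99) kept theirs. The cause of the changes was not tested. Same-numbered libraries deviated together for replicates 1 and 3 (r = 0.456 and 0.527 over 13609 genes) but not for replicate 2 (-0.06), so the numbers were not taken to pair the samples. With the replicate block, 0 members and 0 genes were called, 3 members were at an unadjusted p under 0.05 (beside 5.07% of all genes), and Itgb3 stood at -1.22. Itga4, Itga10, Itgb4, Itgb7 and Fermt3 rest on few reads, and Ilk and Itgb6 did not pass the filter on low counts in the reported fit.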
